A study of Mus musculus with 4 samples.

Results

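Cytosolic ribosomal protein genes encode the proteins of the 40S and 60S ribosomal subunits. They were taken as all genes of the platform annotation whose symbol starts with Rpl or Rps and a digit, or is Rplp0, Rplp1, Rplp2 or Rpsa, without the S6 kinase genes and without pseudogenes. The annotation names 81 such genes, and 50 of them have a probe set that names no other gene, out of 18193 genes with such a probe set in the whole series. The other 31, among them Rpl3, Rpl5, Rpl10, Rpl36al, Rplp1, Rps12, Rps13 and Rps23, are read only by probe sets that name several genes, often pseudogenes, and carry no value of their own here. For each of the 50 genes the brightest single-gene probe set over the 4 arrays was used. Of the 50, 26 belong to the large and 24 to the small subunit, counted by symbol. The symbols Rpl3l, Rpl7l1, Rpl22l1, Rpl39l, Rps4l and Rps27l are paralogs, and Rps19bp1 meets the symbol rule but encodes a protein that binds RPS19 and is not part of the ribosome.

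The samples were mouse peritoneal macrophages drawn out with thioglycolate, an irritant, and kept for 18 hours on slides. The 4 groups were Dap12-KO cells with interleukin-4 (IL-4), Dap12-KO cells without treatment, wild type (WT) cells with IL-4 and WT cells without treatment, and every mouse had received thioglycolate. The labels call the cells knockout and the series' design text speaks of knockdown. They do not give how the mutation was made, the age or sex of the mice, the IL-4 dose, or whether cells of several mice were pooled. IL-4 is a cytokine that drives alternative activation of macrophages, and DAP12, encoded by Tyrobp, is an adaptor protein that carries signals of partner receptors. The series was designed to learn what loss of DAP12 does to macrophage expression at rest and with IL-4. Each group was measured on 1 Affymetrix array, so there are no replicates, a difference between 2 arrays has no test, and precision is limited by how few arrays there are.

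A ribosome joins its RNAs with about equal numbers of each of its proteins, and growing cells spend much of their transcription on it. The mRNAs of ribosomal proteins begin with a run of pyrimidines, the 5′ terminal oligopyrimidine or TOP motif, through which the kinase mTORC1 and the protein LARP1 set their translation. Because these mRNAs are among the most abundant in most cells, ribosomal protein genes are often used as steady references, and because they are so bright their readings depend on the upper end of an array's range.

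Some facts of the arrays bear on these genes. The array labelled Dap12-KO IL-4 was narrower than the others, with a middle 50% of values spanning 2.54 log2 units, against 3.19 on the untreated Dap12-KO array, 3.24 on the WT IL-4 array and 3.25 on the untreated WT array. Its ceiling was lower as well: the highest of its 45101 probe set values was 14.63, against 15.17, 15.06 and 15.07 in the same order. Tyrobp, the targeted gene, read 13.27 on the Dap12-KO IL-4 array, 14.03 on the untreated Dap12-KO array, 14.13 on the WT IL-4 array and 14.39 on the untreated WT array, so its signal does not bear out the knockout label; the part of the gene its probes read is not given, and every direction between genotypes rests on the labels. The 8 macrophage markers were above the level floor, the median of all values (6.39), on all 4 arrays. The summed level of 6 measured B cell markers, in log2 units, was 11.27, 11.77, 10.99 and 10.75 in that order, higher on both Dap12-KO arrays than on the WT arrays. Ighm was the brightest of these markers and weighs most in the sum. With IL-4, Cd79b and Ms4a1 read lower on the Dap12-KO array than on the WT array, by −0.28 and −0.38. Cd79a, Pax5, Ighm and Cr2 read higher there, with Cr2 below the floor on every array. Of 8 mesothelium and fibroblast markers 4 were above the floor. Of these, 3 were lower at 2-fold on the untreated Dap12-KO array than on the untreated WT array, where 3.41% of all genes were lower. The summed levels of the 8 were 9.67, 9.13, 9.70 and 9.83 in the same order of arrays. The summed levels of neutrophil, eosinophil, T and NK cell, mast cell and dendritic cell markers lay between 8.19 and 10.47, against 16.16 to 16.72 for the macrophage markers. The part of other cells in the results was not tested, and in such bulk samples fewer cells of a type and less RNA per cell cannot be told apart.

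The starts of a few members are shown because the TOP motif is the sequence that members share and through which they are known to be controlled together. RefSeq promoter sequences (GRCm38.p6) were matched by symbol for 44 of the 50 members. Each line holds the 30 bases from 15 before to 15 after the annotated start, and capitals mark a C followed by at least 4 bases that are each C or T, searched on the transcribed strand from 5 bases before to 5 after the start.
Rpl35 (chr2:39005117-39005146, minus strand): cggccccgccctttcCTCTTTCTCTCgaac
Rpl38 (chr11:114668565-114668594, plus strand): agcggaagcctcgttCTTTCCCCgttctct
Rplp2 (chr7:141447636-141447665, plus strand): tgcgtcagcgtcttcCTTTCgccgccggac
Rps18 (chr17:33955651-33955680, minus strand): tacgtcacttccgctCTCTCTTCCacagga
Rps10 (chr17:27635230-27635259, minus strand): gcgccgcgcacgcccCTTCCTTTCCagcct
Rps6 (chr4:86857353-86857382, minus strand): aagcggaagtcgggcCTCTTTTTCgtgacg
Rpl12 (chr2:32961697-32961726, plus strand): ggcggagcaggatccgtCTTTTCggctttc
Rps25 (chr9:44407699-44407728, plus strand): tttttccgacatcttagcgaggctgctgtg
Rpl39l (chr16:10170213-10170242, plus strand): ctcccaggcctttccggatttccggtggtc
The first 5 lines are bright members that hold the run. The last 4 are the dim members that differed most between the genotypes without treatment. Of these Rps6 and Rpl12 hold the run within the bases searched, and Rps25 and Rpl39l do not. In Rpl39l such a run ends just before the start, but it begins outside the bases searched. A run starting exactly at the annotated base was present in 8 of 44 members, or 18.2%, against 3.01% of 27025 genes with a promoter sequence. Within 5 bases of the start it was present in 20 of 44, or 45.5%, against 21.2% of all genes. Annotated starts can lie a few bases off the true ones, and no match says only that no such run starts in the bases searched.

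Other short words were searched in longer windows. CCGGAAG, the core bound by ETS family factors such as GABP, was searched on both strands in the 300 bases from 250 before to 50 after the start and was present in 21 of 44 members (47.7%), against 9.93% of all genes. It is shown in capitals in 30-base stretches of 3 members.
Rpl11 (chr4:136053369-136053398, minus strand): aggccacggggCCGGAAGtctccctctctc
Rpl6 (chr5:121204502-121204531, plus strand): ttgcttatagaCCGGAAGccgctgccttag
Rps3a1 (chr3:86142659-86142688, minus strand): gattcttaaagCCGGAAGggcgaaagagca
The YY1 core AAGATGGC was in 4 of 44 members (9.09%) and in 3.19% of all genes, the E-box CACGTG that MYC binds in 4 of 44 (9.09%) and 8.09%, and the TATA word TATAAA in 6 of 44 (13.6%) and 15.7%, each on both strands. Among the core members, those with CCGGAAG had a median difference between the untreated arrays of −0.19 (n = 19) and those without it −0.12 (n = 18). With and without the pyrimidine run near the start these medians were −0.16 (n = 18) and −0.15 (n = 19).

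Most ribosomal protein genes read near the top of every array. The median of the 49 members above the level floor was 13.26 on the Dap12-KO IL-4 array, 13.56 on the untreated Dap12-KO array, 13.73 on the WT IL-4 array and 13.68 on the untreated WT array. Ranked within each array, the median member stood at percentile 99.4, 99.3, 99.4 and 99.4 in that order. Of the 100 brightest probe sets on each array, 25, 25, 28 and 28 in the same order named a ribosomal protein gene, alone or with other genes. A level here is the reading of a probe set and not an amount of transcript, since probe sets differ in how strongly they bind, so members are compared only between arrays.

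The brightest member was Rps29, a zinc-binding protein of the small subunit. It read 14.13 on the Dap12-KO IL-4 array, 14.60 on the untreated Dap12-KO array, 14.58 on the WT IL-4 array and 14.53 on the untreated WT array, which was 0.50, 0.57, 0.49 and 0.54 below the highest value of each array. The first value is the low one and the other three lie within 0.1 of each other. Rps28, also of the small subunit, read 14.01, 14.48, 14.36 and 14.41 in that order, and X-linked Rps4x read 14.00, 14.40, 14.38 and 14.41. At the other end Rps16 read 5.33, 4.92, 5.09 and 4.95, below the floor on every array, and it entered no count. Rps27 read 7.28, 6.60, 6.73 and 6.59, close to the floor. Rpl3l, which is known from heart and skeletal muscle, read 6.72, 5.52, 5.22 and 4.99, so it passed the floor only through the array where it was highest.

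**Figure D1:**
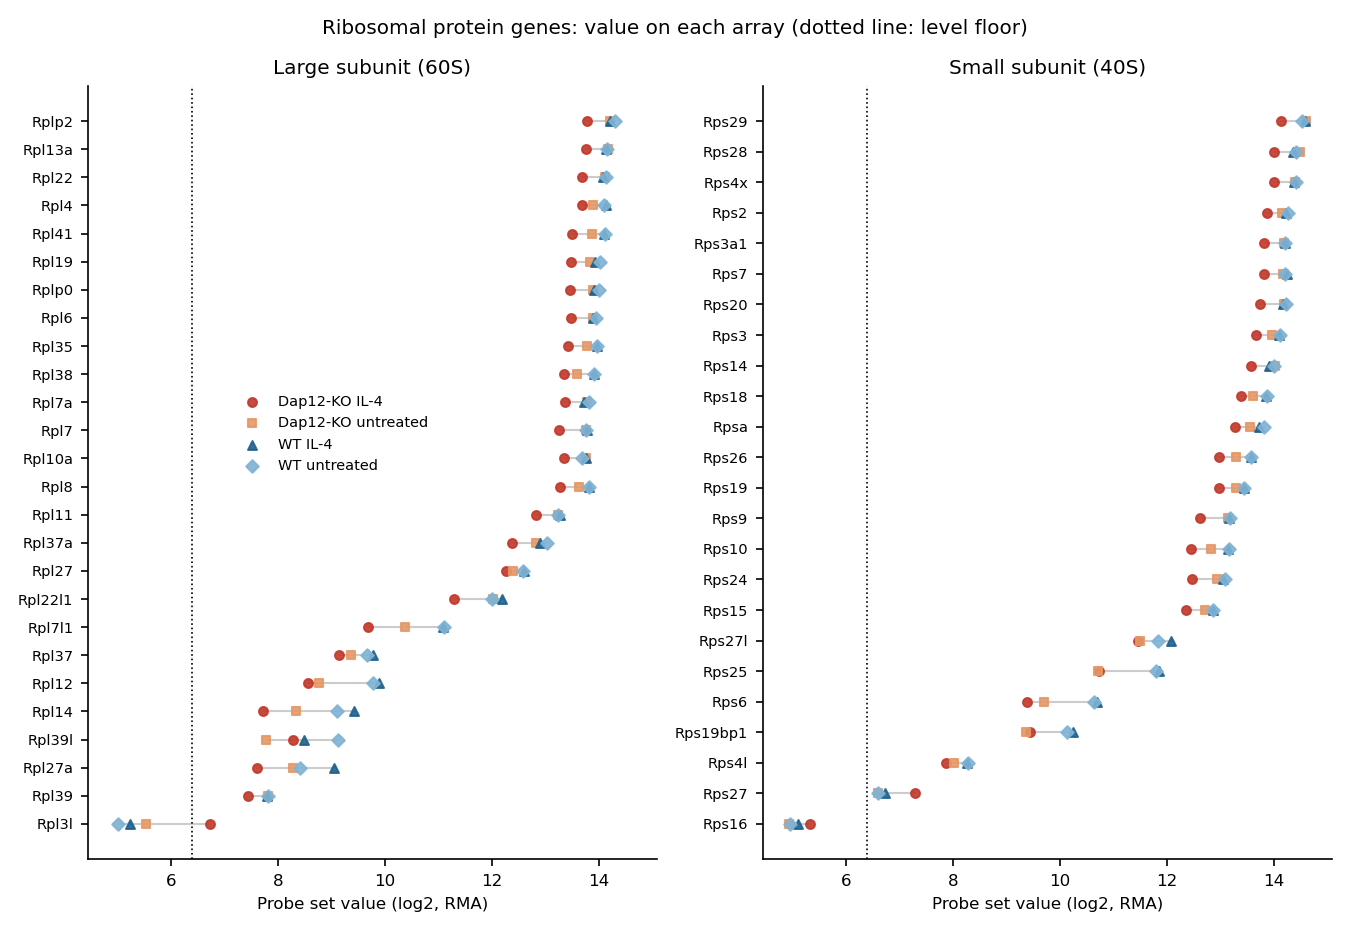
Values (log2, RMA) of the 50 ribosomal protein genes on the 4 arrays, large subunit left and small subunit right, sorted by mean, with grey lines joining the lowest and highest array and a dotted line at the level floor of 6.39. In the bright members the Dap12-KO IL-4 array is lowest and the other arrays lie close together, while Rps25, Rps6, Rpl12 and Rpl7l1 read lower on both Dap12-KO arrays than on both WT arrays.

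The 49 members fall into a tight bright set and a looser dim set. Of them 34 had a mean at or above 12, a bound chosen after the values had been seen, with Rpl27 (12.46) just above it and Rpl22l1 (11.87) just below. The dim 15 are the paralogs, Rps19bp1 and the members Rpl12, Rpl14, Rpl27a, Rpl37, Rpl39, Rps6, Rps25 and Rps27, which had no brighter probe set of their own here. The split describes probe sets, and it gets no test.

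In WT macrophages, the ribosomal protein genes were almost the same with and without IL-4. The median difference was −0.01 over 49 members, against −0.03 over 12767 genes above the floor. In the bright set every difference lay between −0.13 and 0.07, with an SD over members of 0.05, against an SD of 0.35 over the 831 other genes with a mean at or above 12. At 2-fold, 0 members were higher and 0 lower, where 1.21% and 1.25% of all genes were. Below 0 were 28 of 49 members and 24 of the 34 bright ones, against 56.3% of all genes and 57% of the other genes with a mean at or above 12.

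Named bright members show how small the IL-4 differences in WT were. Rplp0 and Rplp2, proteins of the stalk that recruits elongation factors, read 13.92 and 14.21 in WT with IL-4, against 13.99 and 14.30 in untreated WT, differences of −0.08 and −0.09. Rpl11, which forms a particle with RPL5 and 5S RNA and binds the p53 regulator MDM2, read 13.28 with IL-4, against 13.22 without. Rpsa, of the small subunit and also known as a laminin receptor, read 13.73 with IL-4, against 13.81 without. Rpl37a (−0.13) and Rpl7a (−0.09), both of the large subunit, were with Rpl39l the lowest members in this comparison.

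The departures in WT lay in dim members. Rpl27a read 9.04 with IL-4, against 8.41 untreated, a difference of 0.64 and the highest. Rpl14 read 9.41 with IL-4, against 9.10 untreated, and Rps27l, a p53-inducible paralog of Rps27, read 12.08 with IL-4, against 11.83 untreated. At the low end was Rpl39l, a paralog of Rpl39 known from male germ cells, with 8.48 with IL-4, against 9.12 untreated, a difference of −0.65. Each of these 4 differences is under 2-fold.

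On the arrays labelled Dap12-KO, nearly all ribosomal protein genes read lower with IL-4, by about the amount by which the upper end of the array itself was lower. The median difference was −0.37 over the members, against −0.40 over all genes above the floor. Below 0 were 44 of 49 members and all 34 of the bright set, against 66.1% of all genes and 91% of the other genes with a mean at or above 12. The 99th percentile of all probe set values differed by −0.45 between these arrays and the highest value by −0.54. By rank, the median member moved by 0.05 percentile points. Near the top of an array a shift of this size covers only a fraction of a percentile point, so rank changes there are small in any case.

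Bright members moved as a block here. The bright set spanned −0.51 to −0.13 with an SD of 0.09, against 0.41 over other genes with a mean at or above 12. Rps4x, for example, read 14.00 with IL-4, against 14.40 untreated, and Rplp0 read 13.45 with IL-4, against 13.89 untreated. After cyclic loess, a scaling that removes level-dependent differences between arrays, the median of the 49 members was 0.03 and that of all genes 0.09, and the bright set spanned −0.15 to 0.38. The shared lower reading as deposited is therefore not present on that scale.

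At 2-fold, 1 member was higher with IL-4 on the arrays labelled Dap12-KO and 0 were lower, where 8.04% of all genes were higher and 17.6% lower. The 1 was Rpl3l, with 6.72 with IL-4, against 5.52 untreated, where the lower value is a background reading. Rps27 (7.28 with IL-4, against 6.60 untreated) and Rpl39l (8.27 with IL-4, against 7.77 untreated) were next. With cyclic loess Rpl3l read 0.97 and Rpl39l 1.10, so on that scale the 1 member higher at 2-fold was Rpl39l. The lowest were Rpl22l1, a paralog of Rpl22, at 11.29 with IL-4, against 12.01 untreated, Rpl7l1, a factor related to Rpl7 that acts in large subunit assembly, at 9.67 with IL-4, against 10.38 untreated, and Rpl27a at 7.60 with IL-4, against 8.28 untreated. These 3 lay outside the range of the bright set, at −0.72, −0.71 and −0.68, and read −0.17, −0.08 and −0.09 after cyclic loess.

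**Figure D2:**
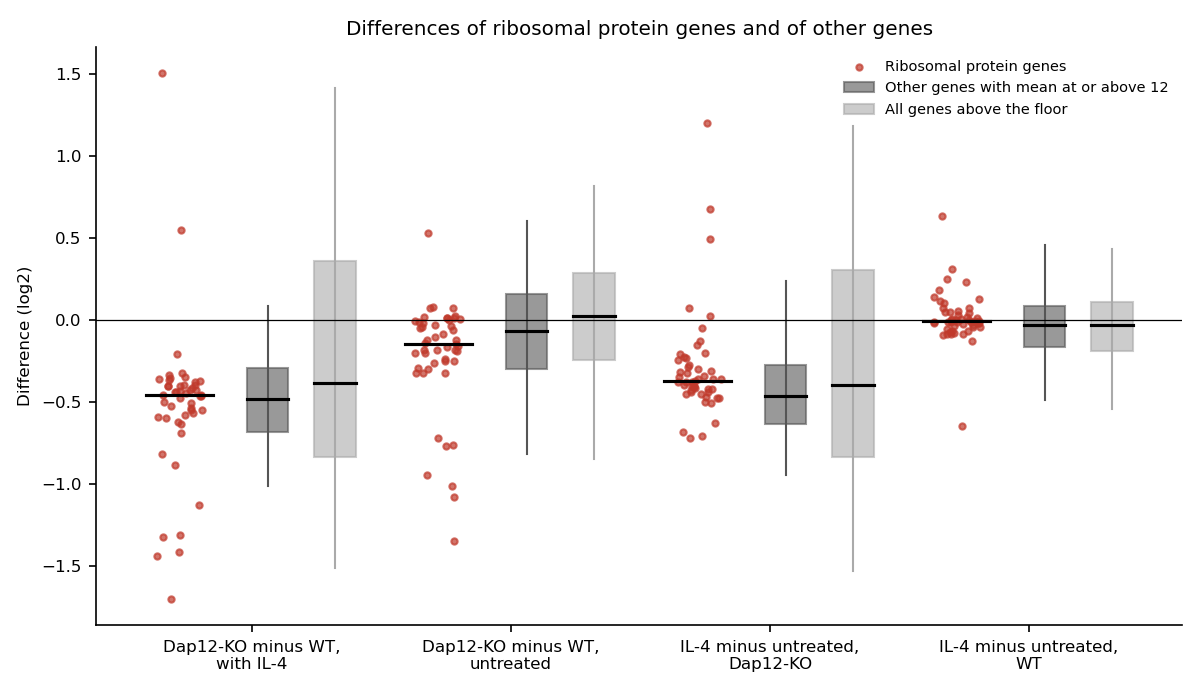
Log2 differences in 4 comparisons for the 49 ribosomal protein genes above the floor (red points, black line at their median), for other genes with a mean at or above 12 (dark boxes) and for all genes above the floor (light boxes), where boxes span the middle 50%, whiskers the 5th to 95th percentiles and black lines mark medians. The ribosomal protein genes cluster near −0.01 for IL-4 in WT and near −0.37 and −0.46 in the comparisons that use the Dap12-KO IL-4 array. In these comparisons the 34 members with a mean at or above 12 have a smaller SD than either set of other genes. Over all 49 members the SD between the IL-4 arrays is 0.47, against 0.38 for other genes with a mean at or above 12.

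The IL-4 difference was also fitted over both genotypes together in limma, keeping genotype as a term and adjusting over all 12767 genes by Benjamini-Hochberg. The fit called 0 ribosomal protein genes in either direction, where 0.54% of all genes rose and 1.1% fell. Of the members 0 also had an unadjusted p under 0.05, against 9.76% of all genes, and the smallest adjusted p of a member was 0.623 with limma. The fit has 1 residual degree of freedom and gives every gene the same standard error, 0.42, which is wider than the differences of the bright set. A p that misses the threshold in this fit does not show that IL-4 left the genes as they were.

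Without treatment, the ribosomal protein genes read slightly lower on the array labelled Dap12-KO than on the WT array, some dim members by more than any bright one. The median difference was −0.15, while the median of all genes was 0.03. Below 0 were 38 of 49 members and 27 of the 34 bright ones, against 47.3% of all genes and 57.8% of the other genes with a mean at or above 12. The bright set spanned −0.33 to 0.08 and had a median of −0.11, where the other genes with a mean at or above 12 had −0.07. After cyclic loess the median of the 49 members was −0.07 and that of all genes 0.09, so the members stayed below the other genes on both scales. This comparison does not use the narrow array.

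At 2-fold, 3 of 49 members were lower on the untreated Dap12-KO array and 0 higher, where 3.41% of all genes were lower and 3.12% higher. Rps25, a small subunit protein known for its part in initiation on viral internal entry sites, read 10.70 on the untreated Dap12-KO array, against 11.79 on the untreated WT array. Rpl12, at the base of the stalk, read 8.76 on the untreated Dap12-KO array, against 9.77 on the untreated WT array. Rpl39l read 7.77 on the untreated Dap12-KO array, against 9.12 on the untreated WT array, the largest difference at −1.35. After cyclic loess these differences were −0.99, −0.91 and −1.26, so that only Rpl39l kept its side of 2-fold there.

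Other dim members went the same way without reaching 2-fold. Rps6, the small subunit protein that S6 kinases phosphorylate, read 9.70 on the untreated Dap12-KO array, against 10.64 on the untreated WT array. Its second single-gene probe set read 5.70 on the untreated Dap12-KO array, below the floor, against 6.74 on the untreated WT array, so it gives no independent size for the difference. Rpl14 and Rpl7l1 differed by −0.76 and −0.72, and Rps19bp1 by −0.77. Bright Rpl10a (13.75 on the untreated Dap12-KO array, against 13.68 in untreated WT), Rps28 and, from below the floor, Rpl3l were the highest, at 0.07, 0.08 and 0.53.

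Dim and bright probe sets of the same member did not give the same size of difference. Of the 24 members with several single-gene probe sets, 22 had more than 1 above the floor. In 17 of these 22 the dimmest of them gave a more negative difference between the untreated arrays than the brightest. Rpl41, the smallest ribosomal protein, shows this: its brightest probe set differed by −0.24 and another bright one by −0.14, and its probe sets with untreated WT values of 8.69 and 9.66 differed by −1.07 and −1.13. For IL-4 in WT the dimmest was the more negative in 8 of 22 members. Rps3, which lies at the mRNA entry channel, was the only member with probe sets at 2-fold in opposite directions. For IL-4 on the arrays labelled Dap12-KO they gave −1.07 and 1.07, the second from an untreated reading at the floor (6.39), while its brightest gave −0.30, and they opposed each other again between the IL-4 arrays.

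With IL-4, the difference between the genotypes was again a shift of the whole set. The median member differed by −0.46 between the Dap12-KO IL-4 array and the WT IL-4 array, and the median gene by −0.39. Below 0 were 47 of 49 members and all 34 bright ones, against 65.8% of all genes and 94% of the other genes with a mean at or above 12. The bright set spanned −0.69 to −0.33 with an SD of 0.09, where other genes with a mean at or above 12 had an SD of 0.38. Other genes among the 500 brightest, a set closer in level, had an SD of 0.27. The 99th percentile of the arrays differed by −0.48 and the highest value by −0.44. By rank the median member moved by −0.01 percentile points, with the limit on ranks given above. After cyclic loess the median of the members was −0.02 and that of all genes 0.13.

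**Figure D3:**
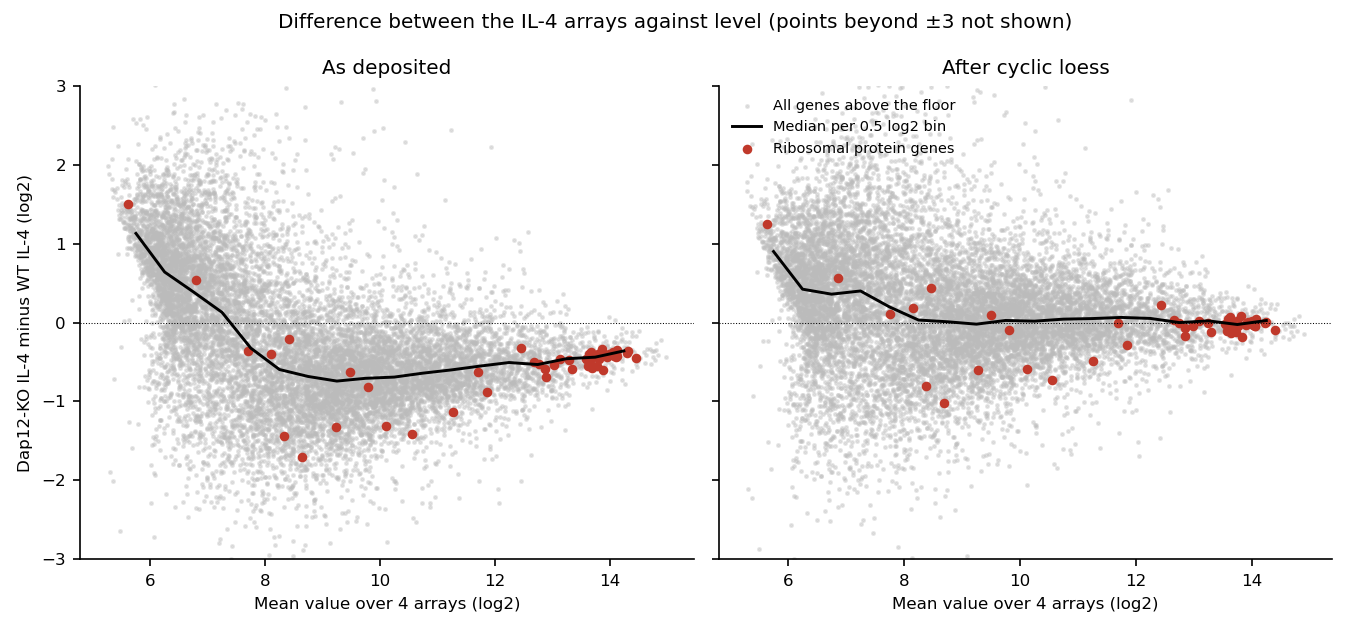
Difference between the Dap12-KO IL-4 and WT IL-4 arrays (log2) against the mean value over 4 arrays, as deposited (left) and after cyclic loess (right), with all genes above the floor in grey, the median per bin of 0.5 log2 units as a line and ribosomal protein genes in red. As deposited the bright ribosomal protein genes lie on the trend of all bright genes, between −0.69 and −0.33, and after cyclic loess they lie around 0. Rpl14, Rpl27a and Rpl7l1 stay furthest below 0 there, followed by Rpl12 (−0.60), Rps6 (−0.59) and Rps25 (−0.48).

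At 2-fold in this comparison, 6 of 49 members were lower and 1 higher, where 17.6% of all genes were lower and 10.9% higher. Rpl14, a large subunit protein, read 7.71 on the Dap12-KO IL-4 array, against 9.41 on the WT IL-4 array. Rpl27a read 7.60 on the Dap12-KO IL-4 array, against 9.04 on the WT IL-4 array, and Rpl7l1 read 9.67 on the Dap12-KO IL-4 array, against 11.08 on the WT IL-4 array. Rpl12, Rps6 and Rps25 made up the 6, at −1.33, −1.31 and −1.13. After cyclic loess only Rpl14 kept its side of 2-fold, at −1.01. The 1 higher was Rpl3l at 1.503, from a WT value below the floor, and 1.25 after cyclic loess, and Rps27 (0.55) and Rpl39l (−0.21) were the next highest.

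The difference of the IL-4 responses, Dap12-KO minus WT, had a median of −0.35 over the members and −0.36 over all genes, and 0.04 and 0.09 after cyclic loess. At 2-fold, 1 of 49 members was lower and 1 higher, where 14.8% of all genes were lower and 8.15% higher. Below 0 were 46 of 49 members and all 34 bright ones, against 66% of all genes and 92.8% of the other genes with a mean at or above 12. The lower one was Rpl27a at −1.32, and the higher one was Rpl39l at 1.14, followed by Rpl3l at 0.97 and Rps27 at 0.54. Rpl14 (−0.94) and Rpl22l1 (−0.90) were next at the low end. After cyclic loess Rpl39l read 1.71 and Rpl27a −0.76. Across the 49 members the IL-4 differences of the 2 genotypes, which share no array, correlated at r = −0.09 (rho = 0.21), against r = 0.34 over the 12767 genes (rho = 0.25). The points of each comparison share its 2 arrays and most of the members barely differ in WT.

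Paralogs did not follow their partners in every case. Rpl39l differed from Rpl39, which forms part of the exit tunnel, in both IL-4 comparisons: Rpl39 read 7.42 on the Dap12-KO IL-4 array, 7.80 on the untreated Dap12-KO array, 7.78 on the WT IL-4 array and 7.80 on the untreated WT array, while Rpl39l read 8.27, 7.77, 8.48 and 9.12 on the same arrays. Between the untreated arrays the difference of Rpl39l minus that of Rpl39 was −1.35. For Rpl7l1 minus Rpl7 it was −0.72, and Rpl7 read 13.76 on both untreated arrays. For Rpl22l1 minus Rpl22 it was 0.04, and for Rps27l minus Rps27 −0.33. Rps4l read 7.86 and 8.01 on the Dap12-KO arrays with and without IL-4, and 8.26 and 8.28 on the WT arrays, and its difference between the untreated arrays minus that of Rps4x was −0.26. A dim and a bright probe set are set against each other in the pairs with Rpl7, Rpl22 and Rps4x, and the within-gene comparison above shows that such pairs can differ for 1 transcript. The same limit holds for Rps27l and Rps27, whose means over the arrays were 11.71 and 6.80, the second close to the floor.

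Large and small subunit genes did not separate. Their medians were −0.00 (n = 26) and −0.01 (n = 23) for IL-4 in WT, −0.40 and −0.33 for IL-4 on the arrays labelled Dap12-KO, −0.15 and −0.15 between the untreated arrays, and −0.47 and −0.46 between the IL-4 arrays. Above the floor were 103 probe sets that name a ribosomal protein gene together with other genes. They were not limited to the 31 genes with no value of their own and do not stand for those alone. Their medians were 0.02, −0.40, −0.13 and −0.53 in these 4 comparisons. At 2-fold, 12 of these 103 were lower and 1 higher between the IL-4 arrays, where 17.6% of all genes were lower and 10.9% higher. For IL-4 on the arrays labelled Dap12-KO 3 were lower and 1 higher, where 17.6% and 8.04% of all genes were. Between the untreated arrays 0 were lower and 0 higher, where 3.41% and 3.12% of all genes were, and for IL-4 in WT 0 and 0, where 1.25% and 1.21% were.

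Genes that build and run the ribosome were read from lists drawn up for this purpose. Of 33 ribosome biogenesis and RNA polymerase I genes, 10 were lower at 2-fold and 0 higher on the untreated Dap12-KO array. Of all genes 3.41% were lower and 3.12% higher there, and the list had a median of −0.88, or −0.78 after cyclic loess. Rrp1b, a nucleolar processing factor, read 7.68 on the untreated Dap12-KO array, against 9.21 on the untreated WT array, and Rrn3, the RNA polymerase I initiation factor, read 8.72 on the untreated Dap12-KO array, against 9.57 on the untreated WT array. The largest differences in the list, picked after their values were seen, were those of dyskerin (Dkc1), at 9.12 on the untreated Dap12-KO array, against 10.83 on the untreated WT array, Nop16 (−1.63) and the snoRNP protein Nop58 (−1.57). With IL-4, 15 of the 33 were lower and 0 higher between the genotypes, where 17.6% of all genes were lower and 10.9% higher. The list median there was −0.97 as deposited and −0.32 after cyclic loess. For IL-4 in WT the median was 0.13 and 0 of 33 reached 2-fold either way. On the arrays labelled Dap12-KO the IL-4 median of the list was 0.16, or 0.75 after cyclic loess, with 0 of 33 at 2-fold as deposited. Of all genes 8.04% were higher and 17.6% lower at 2-fold there.

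On the untreated Dap12-KO array 3.41% of all genes were lower at 2-fold than on the untreated WT array, and 3.12% higher. Of 18 elongation factor and other TOP mRNA genes, 0 reached 2-fold in either direction between these arrays, and the median was −0.07. Among these 18 genes Fau, a ubiquitin-like fusion precursor of the small subunit protein RPS30, had the same pattern as the bright ribosomal proteins. It read 13.12, 13.58, 13.54 and 13.60 on the Dap12-KO IL-4, untreated Dap12-KO, WT IL-4 and untreated WT arrays. Btf3 and Nap1l1 had the largest differences of this list, both between the IL-4 arrays, at −1.34 and −1.11. Of 20 initiation factors 0 reached 2-fold between the untreated arrays, with a median of −0.36, and Eif2b4 and Eif5b differed most, by −1.07 and −1.01 between the IL-4 arrays. Of 76 mitochondrial ribosomal protein genes, which serve a separate ribosome, 1 was lower and 0 higher between the untreated arrays, with a median of −0.32, and Mrpl50 and Mrpl47 differed by −1.63 and −1.54 between the IL-4 arrays.

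**Figure D4:**
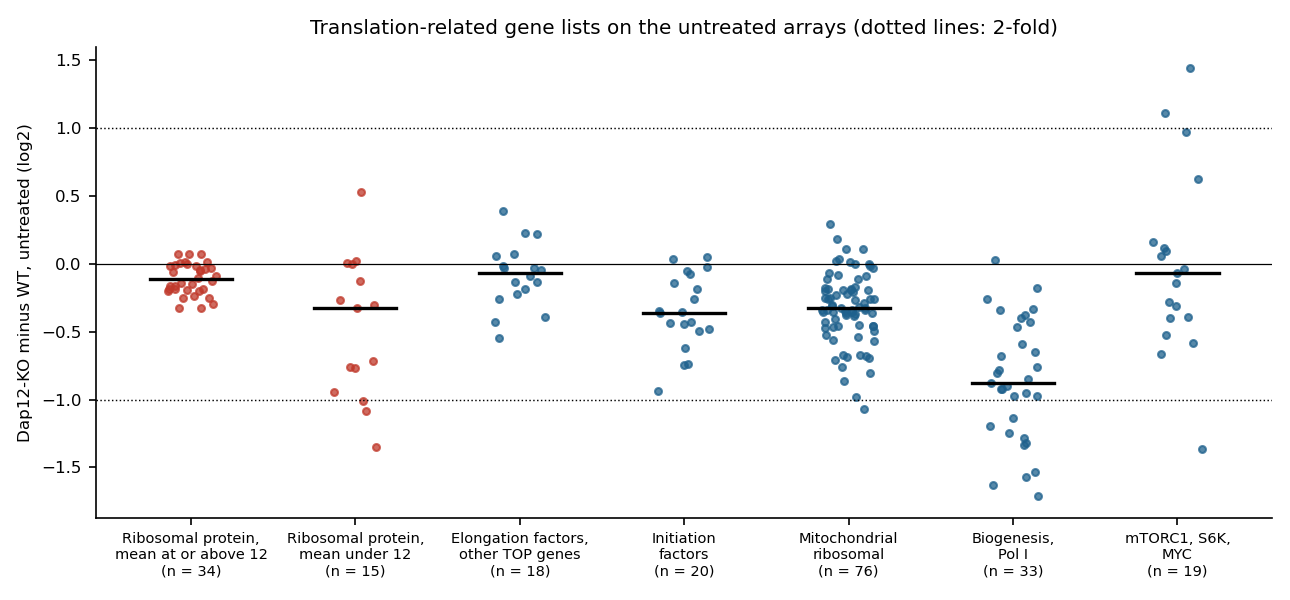
Differences between the untreated arrays, Dap12-KO minus WT (log2), for ribosomal protein genes in red and 5 other translation-related lists in blue, where each point is a gene, black lines are medians and dotted lines mark 2-fold. The bright ribosomal protein genes have a median of −0.11 and stay inside 2-fold. The ribosome biogenesis list has a median of −0.88 with 10 of 33 genes lower at 2-fold, against 3.41% of all genes.

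Of all genes, 3.12% were higher and 3.41% lower at 2-fold on the untreated Dap12-KO array than on the untreated WT array. Among the 19 genes of mTORC1, S6 kinase and MYC control, 2 were higher and 1 lower in this comparison. The higher ones were Mxi1, an antagonist of MYC, at 10.87 on the untreated Dap12-KO array, against 9.43 on the untreated WT array, and Eef2k, the kinase that inhibits elongation, at 7.89 on the untreated Dap12-KO array, against 6.78 on the untreated WT array. The lower one was Myc, which drives ribosome synthesis genes, at 8.77 on the untreated Dap12-KO array, against 10.14 on the untreated WT array. Eef2k and Myc lie outside the rule for named genes and were picked after their values were seen. With IL-4, Mxi1 and Mxd1, another MYC antagonist, differed by −2.03 and −1.53 on the arrays labelled Dap12-KO, against −0.26 and 0.22 in WT. The first comparison uses the narrow array. In it 4 of the 19 genes were lower at 2-fold and 0 higher, where 17.6% of all genes were lower and 8.04% higher. The list median in it was −0.39 as deposited and 0.22 after cyclic loess. In the list of ribosome surveillance genes, 0 of 13 reached 2-fold between the untreated arrays, with Abce1, the ribosome recycling factor, at −0.97 there and −1.36 between the IL-4 arrays, and Ltn1, a ubiquitin ligase for stalled chains, at −0.05 and −0.995.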

How the data were processed

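Total RNA of 4 macrophage samples was amplified in 2 cycles, labelled with biotin and hybridised to Affymetrix arrays, 1 per group, per the labels' protocols. The deposited values are log2 per probe set, and the submitters' processing notes name RMA; the version and the handling of arrays across the series are not given in the sources used here. Of 45101 probe sets, 34945 name 1 gene, 932 several and 9160 none in GEO's platform annotation, and 64 are controls. Symbols were updated through Entrez identifiers to the RefSeq table of GRCm38.p6, which matched 34741 probe sets. Genes whose highest value reached the median of all values, 6.39, entered the comparisons (12767 of 18193).

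Log2 differences were computed between arrays and counted at 2-fold. IL-4 was tested across the 4 arrays by limma 3.58.1 in R 4.3.3 with a genotype term, adjusted with Benjamini-Hochberg at 0.05; the fit was tested on simulated data. Python 3.11.15 with numpy 2.4.6, pandas 2.3.3 and matplotlib 3.10.9 did the rest. Genes named are the 3 highest and 3 lowest members of each of 5 comparisons, the 3 brightest and dimmest, paralogs with their partners, members of known roles and the 2 largest differences of each other list. Members, lists and tests were chosen with earlier results of these data known. Alternatives were cyclic loess with 3 iterations, quantile normalization, median centring, the median over probe sets, no floor, a 1.5-fold threshold, core members only, an intensity trend and no genotype term; every probe set that names a member was added after seeing the data.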

Additional observations from a re-analysis of the deposited data

Results flagged for a closer look

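Rpl27a differed in opposite directions with IL-4 in the 2 genotypes by at least 1.5-fold each way, the only named member to do so. It read 7.60 with IL-4, against 8.28 untreated, on the arrays labelled Dap12-KO (−0.68), and 9.04 with IL-4, against 8.41 untreated, in WT (0.64). The difference of the responses was −1.32. It was not tested, since each group is 1 array, and after cyclic loess the difference of the responses was −0.76 and the value on the arrays labelled Dap12-KO −0.09.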

How the results depend on the processing

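The size of the shared shift depended on the scaling used. The medians of the members for IL-4 in WT, IL-4 in Dap12-KO, the untreated genotypes, the genotypes with IL-4 and the difference of responses were −0.01, −0.37, −0.15, −0.46 and −0.35 as deposited. They were 0.026, 0.0316, −0.0748, −0.0239 and 0.0403 with cyclic loess, 0.014, 0.0523, −0.0882, −0.0159 and 0.0683 with quantile normalization, and 0.0146, −0.48, −0.16, −0.61 and −0.49 with median centring. The median of all genes moved with them, to 0.09 with cyclic loess and −0.51 with median centring for IL-4 in Dap12-KO, against −0.40 as deposited. By the median over probe sets they were 0.0102 for IL-4 in WT, −0.38 for IL-4 in Dap12-KO and −0.52 for the genotypes with IL-4. Over every probe set that names a member they were 0.0116, −0.39 and −0.54 in these comparisons and −0.39 for the difference of responses. With core members only IL-4 in Dap12-KO gave −0.38, the untreated genotypes −0.13 and the difference of responses −0.36, and with no floor the last was −0.34.

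Members lower at 2-fold between the untreated genotypes were 3 as deposited and 1 with cyclic loess. Between the genotypes with IL-4 they were 6 as deposited, 1 with cyclic loess and 2 with quantile normalization. For the difference of responses they were 1 as deposited, 0 with cyclic loess, 0 with quantile normalization and 3 with median centring. For IL-4 in Dap12-KO the median over probe sets gave 1 lower, against 0. With core members only, 0 were higher for IL-4 in Dap12-KO, for the genotypes with IL-4 and for the difference of responses, against 1 each. At 1.5-fold, higher and lower were 1 and 1 for IL-4 in WT, 2 and 4 for IL-4 in Dap12-KO, 0 and 7 for the untreated genotypes, 1 and 13 for the genotypes with IL-4, and 2 and 4 for the difference of responses. Limma called 0 members under each of its 6 alternatives, with a smallest adjusted p between 0.586 and 0.923, while its calls over all genes, 69 rising and 141 falling as deposited, were 0 and 0 with cyclic loess, where 856 genes had an unadjusted p under 0.05. Of 130 values of 26 named members 20 moved by over 1.5-fold with cyclic loess, and 4 of 13 values at 2-fold kept that side in the same direction. Why the deposited array labelled Dap12-KO IL-4 is narrower was not tested. No paired analysis was possible because the labels give 1 array per group and no replicate numbers, and signal over background is unknown without probe-level files.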
